A study of Drosophila melanogaster with 8 samples.

Results

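The interior of chromosome arm 3L is the stretch left when 1 Mb at the telomere side and 2 Mb at the centromere side are set aside. It runs from 1000001 to 22543557 (FlyBase release 5) and is 21.5 Mb long. Its members are the enriched HP1a regions whose midpoint falls in that stretch. There were 508, 535, 408 and 330 of them in ChIP replicates 1 to 4, out of 5406, 5127, 4903 and 4260 regions in the whole lists. A further list, made by the authors for the replicate set together and called the combined set here, held 680 of its 5697 regions there. Members were chosen by position alone, and no region in any list crossed an edge of the interior.

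The material was wild-type Drosophila melanogaster of the strain Oregon-R-modENCODE, as whole embryos labelled 14 to 16 h old. All 8 samples share this genotype and stage. They are 4 ChIP samples made with the HP1 antibody wa191, directed at HP1a, and 4 input samples, each the control of the ChIP sample with its number. No treatment or mutant was contrasted, and whole embryos pool all cell types. The labels do not tell embryos of different sex apart, which bears on comparisons with X. The labels do not state whether replicates came from separate embryo collections, so the spread between them may be technical. The lists give positions and a score but no reads. The sequencing depth behind them is therefore unknown, and absence from a list does not show that a place lacks HP1a.

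Heterochromatin protein 1a reads methylated histone H3 through its chromodomain and joins a partner molecule through its chromoshadow domain, which helps compact and silence chromatin around centromeres. In flies it also occupies separate places along the gene-rich arms, some of them at active genes and some at transposable elements. The interior of 3L is euchromatic sequence of this kind, and the design asks which of its places carried HP1a above input in each replicate.

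HP1a regions in the 3L interior were short and covered a small share of it. They covered 5.49%, 6.16%, 4.28% and 3.36% of its bases in replicates 1 to 4. The mean was 4.82% ± 1.24 (SD, n = 4). Replicates 1 and 2 were both above replicates 3 and 4. These pairs also follow the submitters' experiment numbers, 1914 and 1916 against 2026 and 2027, whose meaning the labels do not give. Density was 20.7 ± 4.38 regions per Mb (SD, n = 4). The 3L interior contributed 8.97% ± 1.19 of the regions in a list but 4.73% ± 0.846 of its covered bases (SD, n = 4).

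A typical region was close to 2 kb wide in every replicate. Median widths were 2033, 2059, 2020.5 and 2013 bp in replicates 1 to 4. Between 51.5% and 53.6% of the regions were 1800 to 2300 bp wide, and the bin from 2000 to 2200 bp alone held 26.2% to 27.6%. The shortest regions of the 4 replicates were 1301 to 1308 bp. Regions over 5000 bp made up 4.53%, 7.10%, 2.70% and 2.12% of the lists in replicates 1 to 4, and the longest spanned 8203, 11596, 9177 and 8504 bp. The bulk of the width distribution was thus alike in the replicates, while the share of wide regions was higher in replicates 1 and 2.

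**Figure D1:**
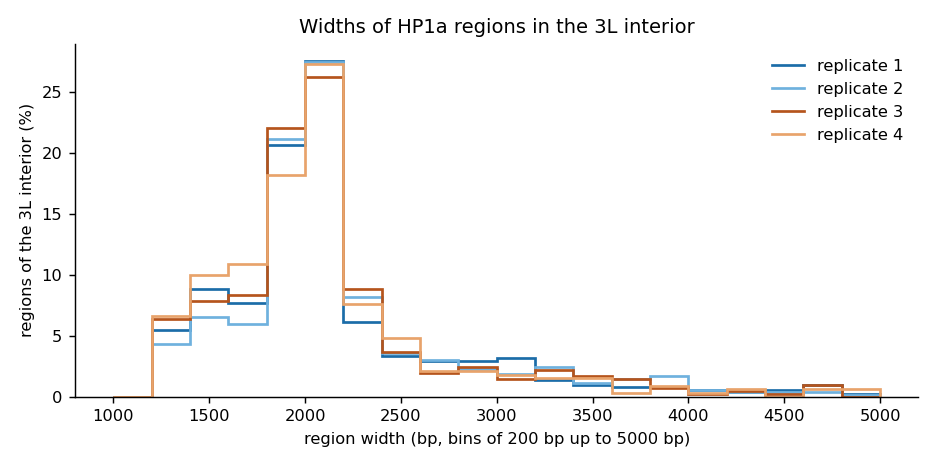
Width of the HP1a regions of the 3L interior (bp, in bins of equal size, drawn up to 5000 bp) against the percentage of each replicate's regions, 1 outline per replicate. The 4 outlines peak in the same bin, from 2000 to 2200 bp, which holds 26.2% to 27.6% of the regions.

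Compared with the interiors of other arms, cut with the same margins, 3L was covered at about the level of 2L and 3R and less than 2R and X. Covered shares in replicates 1 to 4 were 5.14%, 5.87%, 4.19% and 3.39% for 2L. They were 5.30%, 5.92%, 4.17% and 3.37% for 3R. X had 6.55%, 7.53%, 7.10% and 5.64%, and 2R had 6.78%, 7.49%, 5.92% and 4.71%, which was added after seeing the data and not tested. The shares of X and of 2R were higher than those of 3L in 4 of 4 replicates, whereas 3L was above 2L and above 3R in replicates 1 to 3 and just below both in replicate 4.

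The ratio of 3L to X was 0.837, 0.818, 0.602 and 0.596 in replicates 1 to 4, a mean log2 ratio of -0.51 ± 0.27 (SD, n = 4; exact two-sided sign-flip permutation p = 0.125, Benjamini-Hochberg adjusted p = 0.25 over 4 ratios). The smallest p that 4 replicates allow is 0.125, so this test cannot pass 0.05. Against the other 4 arms together the ratio was 0.933, 0.928, 0.815 and 0.800 (mean log2 ratio -0.21 ± 0.12, SD, n = 4; exact sign-flip permutation p = 0.125, adjusted p = 0.25). For 2L and 3R the mean log2 ratios were 0.05 ± 0.05 and 0.04 ± 0.03 (SD, n = 4; exact sign-flip permutation p = 0.25 for each, adjusted p = 0.25). The comparison with 2L and 3R depended on the score threshold. When only the higher-scoring 50% of every list was kept, the mean log2 ratio was -0.30 to 2L, below 0 in 4 of 4 replicates, and -0.08 to 3R, below 0 in 3 of 4. In the same subset it was -0.84 to X and -0.50 to the other 4 arms. Other settings kept the direction to 2L and 3R. For regions per Mb the mean log2 ratio was 0.20 to 2L, above 0 in 4 of 4 replicates, and 0.03 to 3R, in 3 of 4. Mean density was 20.7 regions per Mb on 3L and 18.0 on 2L. With 2 Mb and 3 Mb set aside at the ends, the mean log2 ratios of covered share were 0.11 to 2L and 0.06 to 3R, above 0 in 4 of 4 replicates each.

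**Figure D2:**
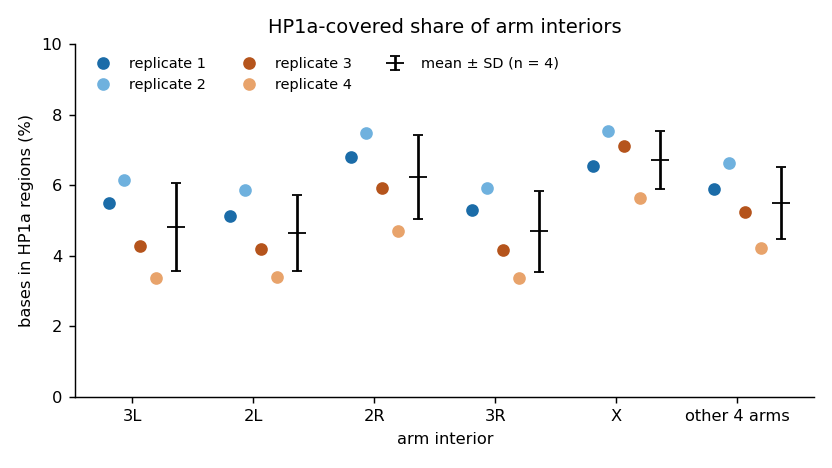
Percentage of bases in HP1a regions (vertical axis) for the interior of 3L, 2L, 2R, 3R, X and the other 4 arms together; points are replicates, and bars give the mean ± SD (n = 4). The points of X and 2R lie above the 3L points in 4 of 4 replicates, and the points of 2L and 3R lie at the level of 3L.

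Regions of the 3L interior also ranked lower by score within their own lists. The authors' score has no stated unit, so for this comparison it was turned into a percentile within a list. The median percentile was 34.6, 34.1, 23.1 and 23.3 for 3L in replicates 1 to 4 and 42.6, 42.7, 30.4 and 27.2 for the interiors of the other 4 arms. The difference was -6.94 ± 2.06 percentile points (SD, n = 4; all 4 values below 0; exact sign-flip permutation p = 0.125). Among the higher-scoring 50% of each list it was -1.49 points and negative in 2 of 4 replicates. By arm, the median percentile in replicates 1 to 4 was 38.6, 41.6, 25.7 and 23.7 on 2L. On 3R it was 42.5, 39.5, 27.9 and 21.5, below 3L in replicate 4. The values of 2L, 2R and X were above 3L in 4 of 4 replicates, on 2L by little in replicate 4. Single arms were not tested for this measure. The median width on 3L was 0.987 times that of the other interiors (SD 0.00141, n = 4; smaller in 4 of 4, exact sign-flip permutation p = 0.125).

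Along the arm, the centromere-side portion had a slightly higher share of bases in HP1a regions than the telomere-side portion. The interior was divided at its midpoint, after position 11771778. The telomere-side portion was covered over 5.06%, 5.73%, 4.07% and 3.19% in replicates 1 to 4, and the centromere-side portion over 5.91%, 6.59%, 4.48% and 3.54%. The ratio was 1.13 ± 0.0320 (SD, n = 4) and lay above 1 in 4 of 4 replicates (mean log2 ratio 0.18 ± 0.04, exact sign-flip permutation p = 0.125). It was 0.34 on the log2 scale in the higher-scoring 50% of each list, and 0.29 with 2 Mb and 3 Mb set aside at the ends. The same ratio was 0.990 ± 0.0564 on 2L, 1.32 ± 0.0679 on 3R, 1.70 ± 0.0353 on 2R and 0.848 ± 0.0392 on X (SD, n = 4), above 1 on 3R and 2R and below 1 on X in 4 of 4 replicates each.

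With the interior cut into 3 equal portions, the covered share was 4.27% ± 1.15 at the telomere side, 4.54% ± 1.03 in the middle and 5.65% ± 1.55 at the centromere side (SD, n = 4), in the same order in 4 of 4 replicates. Single windows varied far more than these portions. Over 43 windows of 500 kb the mean share ran from 1.24% to 11.2%, with a median of 4.53%. The window from 17500001 to 18000000 was the densest, with 13.3%, 12.6%, 10.3% and 8.82% in replicates 1 to 4. It ranked first or second of the 43 in each replicate. The next was 21000001 to 21500000, with 11.4%, 14.0%, 7.43% and 6.19%, where replicate 2 was highest. The window from 11000001 to 11500000 varied least of these, with 9.73%, 10.0%, 8.65% and 9.01%, and was the densest of all in replicate 4. The windows starting at 18500001 and 1000001 followed, at 7.53% ± 2.59 and 7.51% ± 1.99 (SD, n = 4).

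The lowest share belonged to 10000001 to 10500000, with 1.56%, 2.43%, 0.633% and 0.340% in replicates 1 to 4. The windows starting at 13000001 and 8500001 had 2.25% ± 0.331 and 2.42% ± 0.931 (SD, n = 4). Every window held at least 1 region in some replicate. The rank order of the 43 windows was close between replicates 1 and 2 (Spearman's rho 0.942) and between 3 and 4 (0.875). Across these pairs rho was 0.669 to 0.762, given as a description, since windows of 1 library share its depth.

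**Figure D3:**
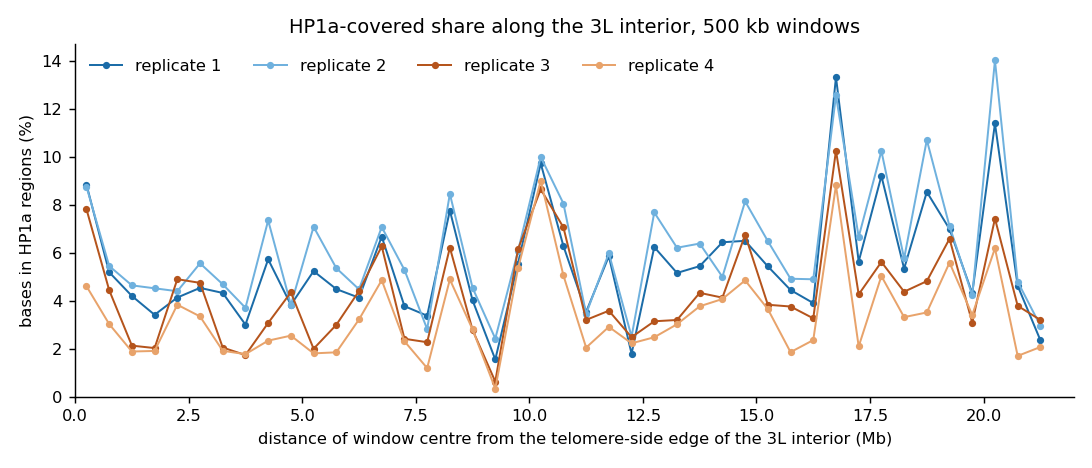
Percentage of bases in HP1a regions in 43 windows of 500 kb, against the distance of the window's centre from the telomere-side edge of the 3L interior (Mb), 1 line per replicate. The lines rise together to 8.82% to 13.3% in the densest window and drop to 0.340% to 2.43% in the sparsest, with replicates 1 and 2 mostly above replicates 3 and 4.

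The edge of the interior lay outside the dense pericentric block. In steps of 100 kb past it, the covered share was 3.09% ± 3.63 and 4.46% ± 0.966 in the first and second step and reached 79.5% ± 3.71 in the step from 23043558 to 23143557 (SD, n = 4). The combined-set regions just inside the centromere-side edge, 22464638 to 22466069 and 22525372 to 22526675, had scores of 0.50 and 0.55. Those just outside, 22549192 to 22550666 and 22552396 to 22555237, had 0.85 and 0.67. At the telomere-side edge the regions just inside, 1007192 to 1008847 and 1053997 to 1055056, had scores of 0.47 and 0.68. Those just outside, 925021 to 928660 and 958481 to 960631, had 0.65 and 1.60.

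Many HP1a regions had a close neighbour. In replicates 1 to 4, 53.0%, 55.1%, 44.9% and 43.3% of the 3L regions had a neighbour within 10 kb, and the median gap was 23415, 19798, 29927 and 35233 bp. In the interiors of the other 4 arms these shares were 52.7%, 54.2%, 49.9% and 50.0%. 3L was above them in replicates 1 and 2 and below them in replicates 3 and 4. The median gap in the other interiors was 21797.5, 20691, 21965 and 25846 bp. In the combined set, 416 of the 680 regions (61.2%) belonged to a group of at least 2 with gaps of up to 10 kb. The share in the other 4 interiors was about the same, 61.5%. On 3L, 14 groups held 5 or more.

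The largest group held 9 combined-set regions over 64.8 kb, from 7796833 to 7861658. It was covered over 23.4%, 21.0%, 24.5% and 19.2% in replicates 1 to 4, so replicate 3 was the highest. The group from 18746032 to 18794756, 8 regions over 48.7 kb, was covered over 39.5%, 46.1%, 26.3% and 21.1%. That from 15062351 to 15098771 also held 8 regions and was covered over 38.9%, 26.7%, 21.0% and 20.7%. The groups from 17982118 to 18023755, with 7 regions, and from 21468795 to 21509716, with 6, were covered over 22.6% ± 6.98 and 20.9% ± 10.5 (SD, n = 4). In the last 4 groups replicates 1 and 2 were both above replicates 3 and 4. Every one of the 5 groups had at least 1 region that no replicate overlapped and at least 2 that all 4 overlapped.

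Between the groups lay long stretches without HP1a regions. The longest with none in any replicate were 241 kb from 12158032 to 12399438, 210 kb from 8232472 to 8442848 and 207 kb from 7512838 to 7720044. In all, 38 such stretches were longer than 100 kb. The second of these held 2 combined-set regions, the other two none.

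The replicates shared a core of places and differed in a wider margin. Of the 680 combined-set regions, 261 had an overlap of 1 bp or more with a region of each replicate. This is 38.4% of the set, with a 95% interval by Wilson's method of 34.8% to 42.1% that covers counting error alone. The same share was 47.1% over all combined-set regions and 41.4% in the interiors of the other 4 arms. The interval takes regions of the same libraries as independent, so it does not test 3L against either. No replicate overlapped 100 of the 680 (14.7%, 12.2% to 17.6%), against 13% over all and 15.6% in the other interiors. The combined set is not independent of the replicate lists, so this overlap is partly built in. After these classes, the most frequent sets were replicates 1 and 2 without 3 and 4, with 96 regions, and replicates 1, 2 and 3, with 68. Replicates 3 and 4 without 1 and 2 had 15.

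**Figure D4:**
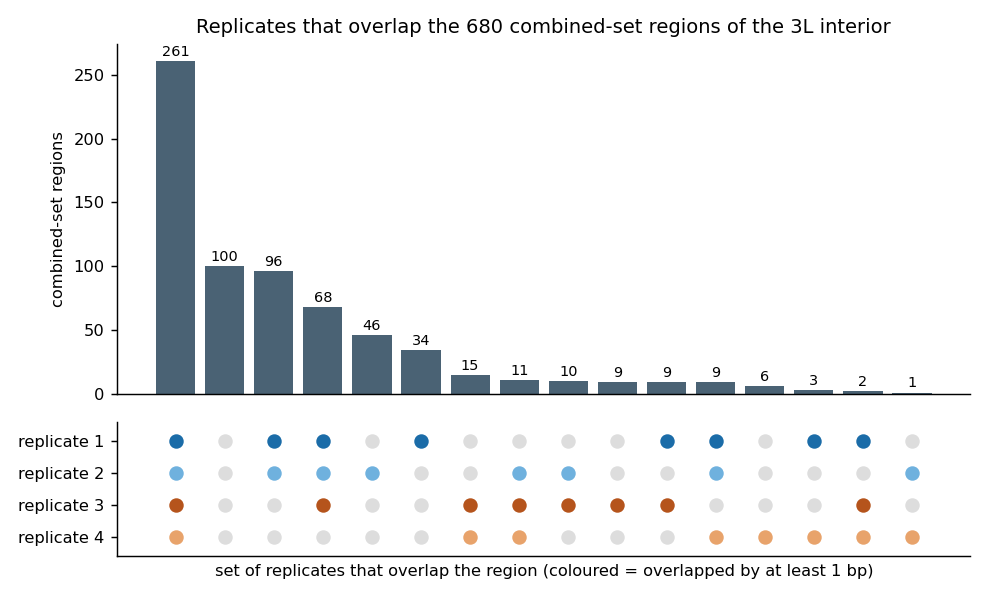
Number of combined-set regions of the 3L interior (bars) for each set of replicates that overlapped them by at least 1 bp (coloured dots below each bar). All 4 replicates overlapped 261 regions, none overlapped 100, and replicates 1 and 2 alone overlapped 96, against 15 for replicates 3 and 4 alone.

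By bases, 1634.9 kb of the 3L interior was covered in at least 1 replicate, which is 7.59% of it. All 4 replicates covered 561 kb, or 34.3% of those bases, and a single replicate covered 449 kb, or 27.5%. The bases covered in all 4 fell into 271 segments with a median length of 2002 bp and a maximum of 7159 bp. The Jaccard index, the shared bases over the bases covered in either list, averaged 0.552 over the 6 replicate pairs. It was 0.710 for replicates 1 and 2 and 0.651 for 3 and 4, and 0.429 to 0.545 for the 4 pairs across them. The corresponding means over 6 pairs were 0.588 on 2L, 0.605 on 2R, 0.593 on 3R and 0.565 on X.

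Within the 3L interior, the shorter lists were largely contained in the longer ones. These overlaps were computed for 3L alone, so they do not show how it compares with other arms. Of the 330 regions of replicate 4, 86.1% were overlapped in replicate 1, 88.2% in replicate 2 and 91.5% in replicate 3. In the other direction, 55.1% of the regions of replicate 1 and 53.3% of those of replicate 2 were overlapped in replicate 4. A region of replicate 1 overlapped in both replicates 3 and 4 had a median score percentile of 70.9 among that replicate's 3L regions. A region overlapped in neither had 38.1. For replicate 2 these percentiles were 68.9 and 38.0, so its regions not found in the other pair also ranked lower, though not at the bottom. In replicates 1 and 2, those overlapped in just 1 of replicates 3 and 4 ranked lowest, at 23.2 and 23.6. The order differed in the other pair. Regions of replicate 3 had 56.4 when overlapped in both replicates 1 and 2, 35.5 in just 1 and 32.7 in neither. For replicate 4 these percentiles were 52.1, 53.8 and 45.3, so they lay closer together.

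Where 2 replicates each had a single region at a place, the positions matched closely. Replicates 1 and 2 had 426 such matches, whose midpoints differed by a median of 29 bp, and replicates 3 and 4 had 282, with 48.2 bp. Across these pairs there were 267 to 347 matches with median offsets of 36 to 55 bp, small beside the width of about 2 kb. The scores of matched regions were ordered alike, with Spearman's rho of 0.823 and 0.820 within the pairs and 0.709 to 0.791 across. These are correlations over regions of the same libraries and are given without a test.

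Agreement rose with the combined score. That score is not independent of the replicate lists either, so the rise is partly built in. It was examined on 3L alone. Among the 170 regions with the lowest combined scores, 9 were overlapped in all 4 replicates (5.29%). The following sets of 170 by score gave 21 (12.4%), 79 (46.5%) and, for the highest scores, 152 (89.4%). Regions that no replicate overlapped had a median width of 1260 bp, and 55 of the 100 were shorter than the shortest replicate region of 3L, 1301 bp. Conversely, 2, 0, 23 and 16 regions of replicates 1 to 4 were not overlapped by the combined set. Those of replicates 3 and 4 made up 5.64% and 4.85% of their 3L regions, with no such share computed for other arms.

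Wide regions were mostly seen in replicates 1 and 2 alone. Of 61 combined-set regions over 5000 bp, 38 were overlapped in replicates 1 and 2 only (62.3%, Wilson interval 49.7% to 73.4%), 18 in all 4 and 0 in replicates 3 and 4 only. The class of replicates 1 and 2 had a median width of 3263.5 bp, against 2211 bp for regions found in all 4. The other 4 interiors gave 125 of 232 wide regions (53.9%). The Wilson interval covers counting error alone and takes regions of the same libraries as independent, so it does not test 3L against the other arms. The share on 3L was 50% for regions over 4 kb and 53.6% for those over 7 kb. It fell to 31.7% in the higher-scoring 50% of each list, where 13 of 41 wide regions were of this class, and to 46.3% when regions were merged across gaps of up to 1 kb.

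These 38 wide regions were 5167 to 16090 bp long with a median of 6509 bp, and 20 lay telomere-side and 18 centromere-side of the midpoint. Replicate 1 covered a median of 71.3% of their bases and replicate 2 a median of 93.0%. Replicates 3 and 4 covered none of them, as the definition of the class requires. Some ranked high by score. The highest-scoring was 6281 bp from 8226257 to 8232537, covered over 92.1% and 97.7% in replicates 1 and 2, with a combined score of 1.91 that ranked 49 among 680. It was followed by 6309 bp from 1424339 to 1430647, covered over 92.3% and 100%, and 6606 bp from 12911805 to 12918410, covered over 92.2% and 98.5%. These 3 ranked between 25 and 75 among the 508 and 535 regions of replicates 1 and 2. The highest-scoring regions of the opposite class, seen in replicates 3 and 4 only, started at 5933680, 15581103 and 7352110. They were 1106, 1316 and 1102 bp wide in the combined set, but the regions called there were 2003, 2009 and 3672 bp in replicate 3 and 1681, 1657 and 3183 bp in replicate 4. They ranked 380, 397 and 405 in the combined set. Of the regions that no replicate overlapped, the highest-scoring were 1026 bp from 21953662, 1036 bp from 1145982, and the one from 18508128 to 18510126, ranked 188, 229 and 234.

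The 5 widest combined-set regions were covered most in replicate 2 and least in replicates 3 and 4. The widest, 16090 bp from 6408417 to 6424506, was covered over 43.7%, 72.6%, 0% and 0% in replicates 1 to 4 and was split into 4 and 5 regions in replicates 1 and 2. The second, 11764 bp from 5104148 to 5115911, was covered over 45.7%, 98.6%, 14.6% and 14.2%, a single region only in replicates 2, 3 and 4. The third, from 18763656 to 18774287, was covered over 52.3%, 81.3%, 22.9% and 22.7%. The fourth, from 13802875 to 13812206, was covered over 29.4%, 78.4%, 0% and 0%.

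The fifth, 9216 bp from 5450944 to 5460159, was the most evenly covered of them, over 84.4%, 86.0%, 78.1% and 52.4%, and its score ranked 79 and 65 among the 3L regions of replicates 1 and 2. Its rank was 5 in replicate 3 and 2 in replicate 4. As a share of each replicate's 3L regions these ranks are the top 15.6%, 12.1%, 1.23% and 0.606%. The third widest stood at 13.8%, 10.1%, 3.43% and 7.58% in replicates 1 to 4, and the second at 53.3%, 36.4%, 30.4% and 34.8%. Of the 5 widest, the 3 that were seen in every replicate thus ranked higher in replicates 3 and 4 than in replicates 1 and 2. Replicates 3 and 4 covered less of them. In all, 18 regions over 5000 bp were seen in all 4 replicates, and the remaining ones were not compared in this way.

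The highest-scoring regions of the 3L interior were found at matching edges in all 4 replicates. The first was 7324 bp long, from 14747045 to 14754368, and had the highest score of the whole combined set, 3.63. It was called as a single region of 7250, 7325, 7215 and 7181 bp in replicates 1 to 4, covering 98.0% to 99.6% of it. It ranked 2, 1, 1 and 3 among the 3L regions of replicates 1 to 4. Over the whole lists it ranked 3, 1, 98 and 210, so it stayed among the first 3 of the 3L interior while many regions elsewhere outranked it in replicates 3 and 4. The second, 2329 bp from 13469301 to 13471629 with a combined score of 3.23, ranked 1, 4, 2 and 4 on 3L and 2, 20, 279 and 410 in the whole lists.

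The other 8 of the 10 had combined scores from 2.97 down to 2.66. In descending order they started at 3225177, 17555748, 22399933, 20941645, 10848710, 21015449, 20393709 and 19887435. Of all 10, 7 were 2221 to 2578 bp wide, near the typical width, and the other 3 were 4363, 5251 and 7324 bp. Mean coverage by the replicates was 94.2% ± 5.43 for the region starting at 20941645 and 96.4% to 99.2% for the other 9 (n = 4). The region starting at 20941645 was called with widths of 2528, 2569, 2350 and 2277 bp in replicates 1 to 4. The region starting at 3225177 lost most rank between the pairs, from 3 in both replicates 1 and 2 to 15 and 24 in replicates 3 and 4. The one starting at 21015449 kept a similar rank, 5, 9, 6 and 7. Whole-list ranks differed far more. The 3L interior held 14 and 15 of the 100 highest-scoring regions of replicates 1 and 2 but 1 each of those of replicates 3 and 4. It held 9.40%, 10.4%, 8.32% and 7.75% of all regions in replicates 1 to 4, so its share of the top 100 was above its share of the list in replicates 1 and 2 and below it in replicates 3 and 4. Its median percentile was nevertheless below that of the other interiors in each replicate, as given above.

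**Figure D5:**
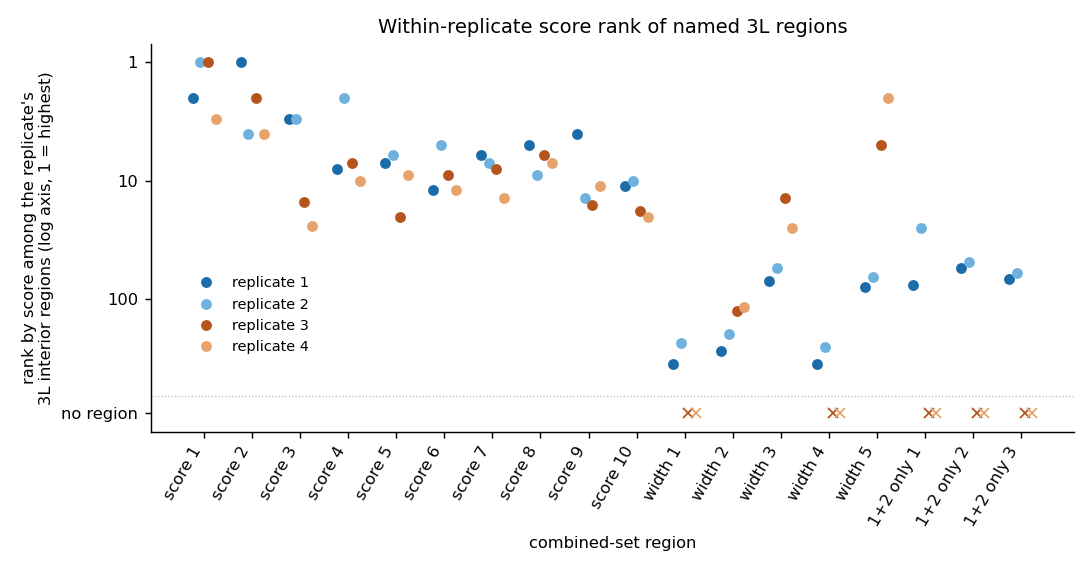
Score rank among the 3L interior regions of each replicate (log axis, 1 is highest) for the 10 highest-scoring regions, the 5 widest, and the 3 highest-scoring regions seen in replicates 1 and 2 only, each numbered in the order given in the text; crosses mark replicates with no region there. The highest-scoring regions rank 1 to 24 in each replicate, whereas the fifth widest region moves from ranks of 79 and 65 in the first pair to 5 and 2 in the other.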

How the data were processed

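The members, lists and comparisons were chosen with earlier results of these data known. The authors deposited 5 lists of regions of significant enrichment on FlyBase release 5, per the file headers, with Bowtie 0.12.7 named in the submitters' processing notes. Not given in the sources used here are the peak caller, its threshold and the making of the combined set. The number beside each deposited region is the authors' score, on a scale that no source states, and served for ranks and filters within a list.

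Covered shares are bases in regions over all bases of a stretch, gaps and repeats included. Interiors of all arms had the same margins. Ratios were formed within each replicate and tested by flipping signs (exact permutation test, two-sided), adjusted by the Benjamini-Hochberg method over the 4 arm ratios. Named regions follow a rule: the 10 highest combined scores found in all 4 replicates, the 5 widest, the 5 densest and 3 sparsest windows, the 3 longest empty stretches, the 5 largest groups, the 3 highest scores in each replicate-pair class and in none, and the regions beside each edge. Alternatives were each replicate left out, regions merged where gaps were at most 1 kb, the higher-scoring 50% of a list, regions per Mb, wider margins and stricter overlap. Wide regions were examined after seeing the data. The code used Python 3.11.15, NumPy 2.4.6, SciPy 1.17.1 and Matplotlib 3.10.9 and was tested on simulated lists. Depth is unknown. Genes and sequence at the regions were not analysed here.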

Additional observations from a re-analysis of the deposited data

Results flagged for a closer look

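The region from 17555748 to 17558022, number 4 by combined score in the 3L interior, was covered over 99.9% in replicate 2. The remaining replicates covered 96.8%, 97.2% and 97.0% of it, so replicate 2 stood apart by Dixon's 95% criterion for groups of 4. Of 48 values examined this way it was the only case, and about 1 in 20, or 2.4, would be singled out by chance. No cause was tested.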

How the results depend on the processing

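Leaving out each replicate in turn reversed no direction of the 7 tested differences. The mean log2 ratio of 3L to 2L ran from 0.03 to 0.06, to 3R from 0.03 to 0.05, to X from -0.59 to -0.43 and to the other 4 arms from -0.24 to -0.17. The mean log2 ratio of the centromere-side to the telomere-side portion ran from 0.16 to 0.19. With 3 replicates the smallest p is 0.25, so p says nothing about stability there. The share of combined-set regions found in all replicates ran from 38.7% to 48.4%, and the share of once-covered bases covered in all from 37.5% to 44.5%; both ask for 3 lists in place of 4 and rise by construction. The Jaccard index ran from 0.531 to 0.590, its excess within the pairs from 0.15 to 0.26, the covered share from 4.38% to 5.31% and the number of regions from 415 to 484.

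With only the higher-scoring 50% of every list, the log2 ratios to 2L and 3R turned to -0.30 and -0.082; the cause was not tested. That subset, which holds fewer regions, gave 14.8% of combined-set regions found in all 4 replicates, 16.0% of once-covered bases covered in all 4, a Jaccard index of 0.380, a covered share of 1.68% and 123 regions on average. Of its wide regions 31.7% were in replicates 1 and 2 only. Merging across gaps of up to 1 kb gave 46.3% for these wide regions and 34.5% for once-covered bases covered in all 4. Stricter overlap gave 36.3% and 35% for regions found in all 4. Among the 5 widest regions, those starting at 6408417, 5104148 and 13802875 were covered over a mean of 29.1%, 43.3% and 26.9%; each went to 0% in the higher-scoring 50% of the lists, and without replicate 2 to 14.6%, 24.8% and 9.78%. The one starting at 18763656 went from 44.8% to 22.9% in the higher-scoring 50%. No paired analysis was possible because the groups that share replicate numbers are ChIP and input, and the input samples have no region lists among the files used here; the ratios between arms were formed within each replicate from the start. Unknown depth limits every statement on a missing region.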

Other observations

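A few places ranked high in 1 replicate and low or nowhere in the rest. They were picked after their values were seen. The highest-scoring 3L region of replicate 4, 1394 bp from 6034363 to 6035756, ranked 214 and 241 in replicates 1 and 2 and was not overlapped in replicate 3. The region ranked 4 in replicate 3, 2026 bp from 11607505 to 11609530, ranked 249 in replicate 2 and was not overlapped in replicates 1 and 4. The place from 5452740 to 5459940 was different, since replicates 3 and 4 both ranked it in their first 5. Of the 50 highest-scoring 3L regions of a replicate, 31 to 37 were overlapped by the 50 highest of another, with 37 for replicates 1 and 2 and 36 for replicates 3 and 4.

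Some regions of a list had exactly the same score as another on 3L. There were 53 such repeats among 508 regions in replicate 1, 19 among 535 in replicate 2, 11 among 408 in replicate 3 and 7 among 330 in replicate 4. Their cause was not tested.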
